A study of Mus musculus with 14 samples.

Results

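The 10 genes described here, Ttr, Clic6, Folr1, Kl, Aqp1, Slc4a5, F5, Otx2, Prlr and Cldn2, are known for their expression in the choroid plexus epithelium. They were taken by name from a table of read counts of 24421 genes in the hippocampus of 14 male mice. The mice were 7 LPAR2-/- mice, which carry a deletion in the gene of the lysophosphatidic acid receptor LPAR2, and 7 wild-type (WT) mice. All 14 carry the strain label 129.C57Bl6 and were naive, without treatment. The paper's methods describe the knockouts as a homozygous colony bred beside the control colony, so genotype and colony cannot be told apart. Sample labels give an age of 10 to 12 weeks while the series title calls the mice aged, and the tissue is hippocampus in the labels and the paper's methods but dentate gyrus in its results, so age and exact region are uncertain.

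The choroid plexus hangs in the brain ventricles next to the hippocampus. Its epithelial cells secrete cerebrospinal fluid and form the barrier between blood and fluid, and they make transthyretin in very large amounts. Several of the genes are also made elsewhere in the brain, for example Kl in neurons and Otx2 in some other brain regions. In RNA of whole tissue, more cells of a type and more RNA per cell cannot be told apart.

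Sequencing depth, as the sum of all gene counts of a library, was 15434620 to 23258949. The targeted gene itself went against the labels, with 144 to 234 Lpar2 reads in the LPAR2-/- mice and 27 to 66 in the WT mice. Reads were counted over the gene as a whole, so the table does not show whether the deleted stretch was transcribed, and LPAR2-/- stands here for mice labelled so. No pair of mice within a genotype agreed within sampling noise. Levels per mouse are given as raw counts, and as CPM, the usual depth-scaled counts, with TMM factors.

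Ttr, which encodes the carrier of thyroxine and of retinol-binding protein in cerebrospinal fluid, was far higher in LPAR2-/- mouse 2 than in any other mouse. It had 4726 reads there, 427 in LPAR2-/- mouse 4, 120 in LPAR2-/- mouse 3 and 20 to 44 in the other 4 LPAR2-/- mice. In WT mice the counts ran from 20 to 120 with a median of 50, against a median of 44 in LPAR2-/- mice. The typical mouse therefore had a similar Ttr count in both genotypes, and the ranges overlapped. In CPM, the level in LPAR2-/- mouse 2 was 13.2 times that of the next highest mouse and 102 times the median of the 13 others. The mean was 39.1 ± 89.7 CPM (SD, n = 7) in LPAR2-/- and 2.77 ± 1.76 CPM (SD, n = 7) in WT mice, and 5.27 ± 6.57 CPM in the 6 LPAR2-/- mice without mouse 2. The gene lies at chr18:20665250-20674326 of mm10 on the plus strand.

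Slc4a5 encodes an electrogenic sodium bicarbonate cotransporter of the apical epithelial membrane (chr6:83237375-83304945, plus strand). It had 38 reads in LPAR2-/- mouse 2 and 0 to 4 in every other mouse of either genotype, with 0 reads in LPAR2-/- mice 5, 6 and 7 and in WT mouse 7. A count of 0 allows up to 3 reads. Its level in LPAR2-/- mouse 2 was 9.58 times the next highest. The median was 2 reads in both genotypes.

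Folr1, the folate receptor alpha that carries folate across the epithelium (chr7:101858331-101870788, minus strand), had 43 reads in LPAR2-/- mouse 2. LPAR2-/- mice 4 and 3 followed with 12 and 10 reads, the other LPAR2-/- mice had 1 to 5 and the WT mice 1 to 9. LPAR2-/- mouse 2 thus stood alone for Folr1 as well, at 4.26 times the next highest CPM.

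F5 encodes coagulation factor V (chr1:164151835-164220277, plus strand). Its count was 80 in LPAR2-/- mouse 2, 4 to 22 in the other LPAR2-/- mice and 3 to 14 in WT mice. F5 shares exonic bases with the antisense gene Gm16548, which was counted on its own strand and had 1 read in LPAR2-/- mouse 2.

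Clic6, an intracellular chloride channel protein abundant in this epithelium (chr16:92498147-92541241, plus strand), was highest in the same mouse with 110 reads. LPAR2-/- mice 3 and 4 came next with 48 and 24 reads, and the remaining LPAR2-/- mice had 7 to 11. WT mice had 2 to 11 reads with a median of 6, against 11 in LPAR2-/- mice. Each of the 7 LPAR2-/- mice lay above the WT median for Clic6, and the ranges overlapped.

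**Figure D1:**
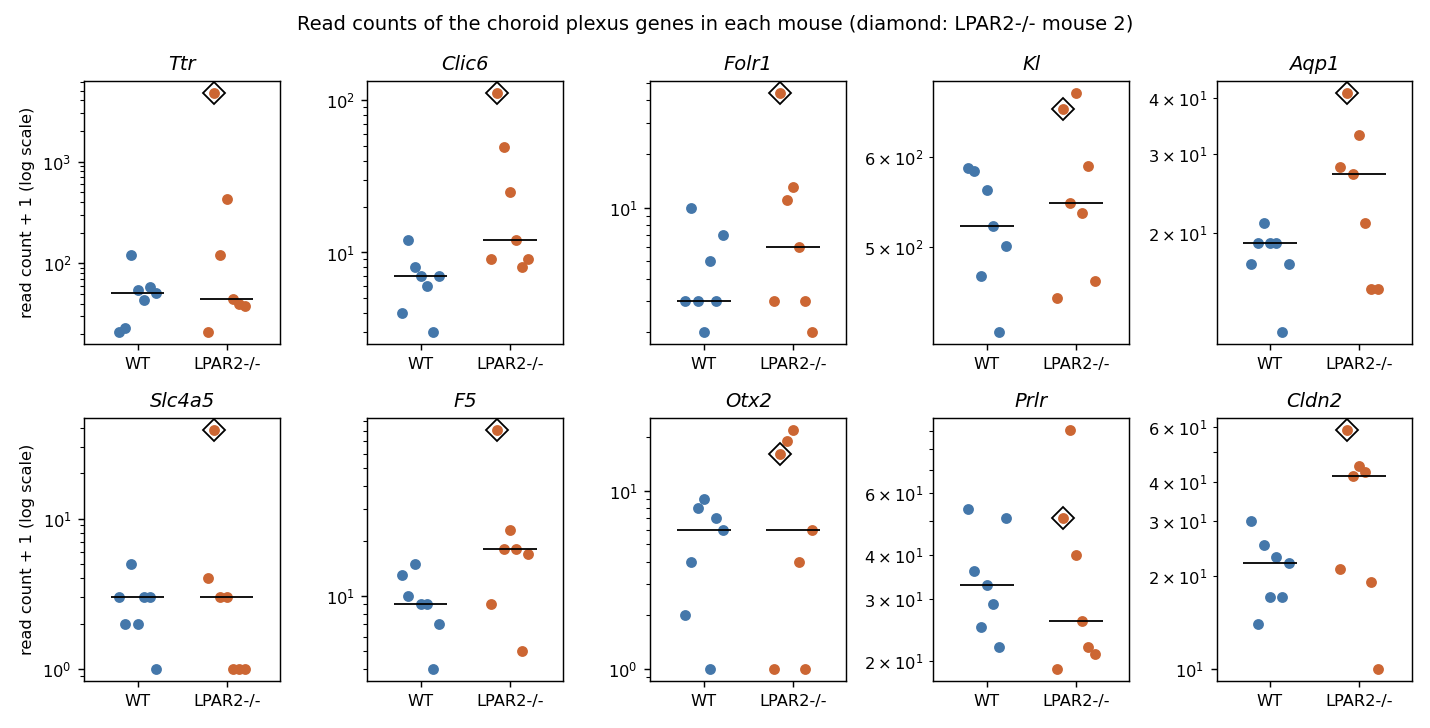
Raw read count plus 1 (vertical log axis) of each of the 10 genes in 7 WT and 7 LPAR2-/- mice. Points are mice, lines are medians and the diamond marks LPAR2-/- mouse 2, which holds the highest Ttr count, 4726, and also stands above all others for Slc4a5, Folr1, F5 and Clic6.

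To show the start of a gene that stood apart in LPAR2-/- mouse 2 beside the start of the evenly expressed Kl, 3 promoter windows of RefSeq on GRCm38.p6 (mm10) are printed 5′ to 3′ on the plus strand, each 250 bases before to 50 bases after a transcription start. Capitals mark a match to TATAAA read on the other strand. The windows are chr6:83237125-83237424 for Slc4a5, chr1:164151585-164151884 for F5 and chr5:150952357-150952656 for Kl.
Slc4a5: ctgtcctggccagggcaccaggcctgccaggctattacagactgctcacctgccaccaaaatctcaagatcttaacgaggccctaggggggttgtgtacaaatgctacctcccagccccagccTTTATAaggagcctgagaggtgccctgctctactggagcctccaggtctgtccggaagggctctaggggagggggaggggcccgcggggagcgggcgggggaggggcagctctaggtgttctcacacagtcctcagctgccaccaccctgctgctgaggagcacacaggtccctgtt
F5: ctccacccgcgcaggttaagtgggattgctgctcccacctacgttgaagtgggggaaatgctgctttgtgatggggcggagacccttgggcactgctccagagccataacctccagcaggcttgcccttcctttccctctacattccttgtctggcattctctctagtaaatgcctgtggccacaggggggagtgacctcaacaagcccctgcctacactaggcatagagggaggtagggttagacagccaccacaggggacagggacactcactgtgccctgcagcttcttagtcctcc
Kl: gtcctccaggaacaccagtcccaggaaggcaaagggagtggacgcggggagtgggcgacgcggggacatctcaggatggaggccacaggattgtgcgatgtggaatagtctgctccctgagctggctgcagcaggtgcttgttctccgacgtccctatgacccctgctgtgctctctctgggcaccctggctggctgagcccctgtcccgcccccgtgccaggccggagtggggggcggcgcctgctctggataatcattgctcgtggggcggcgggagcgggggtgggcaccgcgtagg
Windows of 7 of the 10 genes were searched, 12 in all. None of Ttr, Clic6 or Folr1 was among them, so nothing is said here about their starts. TATAAA, searched on both strands, was found in windows of Slc4a5, Otx2 and Cldn2, 3 of the 12. It was found in 13.6% of the 32851 windows searched. TAATCC, the letters that OTX2 is known to bind, was found in 1 of the 12 windows, that of Otx2 itself. It was found in 7.06% of the windows searched, and in none of those printed. A match is only a run of letters. The GC content was 62.7% for Slc4a5, 57.7% for F5 and 67.3% for Kl, above the median of 52.7% over the windows searched.

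LPAR2-/- mouse 2 was the highest of the 14 mice for 7 of the 10 genes, the 5 above and Aqp1 and Cldn2. It was the highest for 5.85% of the 14901 genes with at least 20 reads in some mouse. Only 5 of these genes, 0.0336%, had at least 20 reads in LPAR2-/- mouse 2 and a CPM at least 3-fold above every other mouse. They were Ttr, Slc4a5, Folr1 and F5 from the 10 genes, and Kcne2, a potassium channel subunit of the same epithelium, with 39 reads against 1 to 7 in the other mice. The mouse that was high was identified from these same counts, so the shares describe it and carry no test. By the same measure other mice also held genes of their own, 9 in WT mouse 1, 6 in WT mouse 2 and 5 in LPAR2-/- mouse 3.

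Of the reads on the 10 genes, Ttr took 81.2% in LPAR2-/- mouse 2 and 2.76% to 32.7% in the other mice, where Kl took 52.3% to 84.8%. The 10 genes together reached 293.6 RPM (their reads scaled to the total of the library) in LPAR2-/- mouse 2, 57.4 in LPAR2-/- mouse 4 and 28.5 to 41.6 in the others.

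LPAR2-/- mice 3 and 4 carried a surplus of some of these genes, and its make-up differed from that of mouse 2. Above the WT median, Ttr was higher by 239 CPM in mouse 2, and the surplus in mouse 4 was 6.56% and in mouse 3 1.04% of that. The Ttr level of LPAR2-/- mouse 3, 5.20 CPM, was below the 6.10 CPM of WT mouse 3. For Clic6 the same shares were 13.8% in mouse 4 and 33.3% in mouse 3, and for Folr1 18.9% and 14.9%. Slc4a5 had 2 reads in each of mice 3 and 4, a CPM just below the WT median. Otx2 had a surplus in mice 3 and 4 as large as in mouse 2, at 102% and 129% of it. For Prlr the surplus in mouse 3 was 238% and in mouse 4 8.98% of that in mouse 2. Kl lay below the WT median in mouse 3 and above it in mouse 4.

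**Figure D2:**
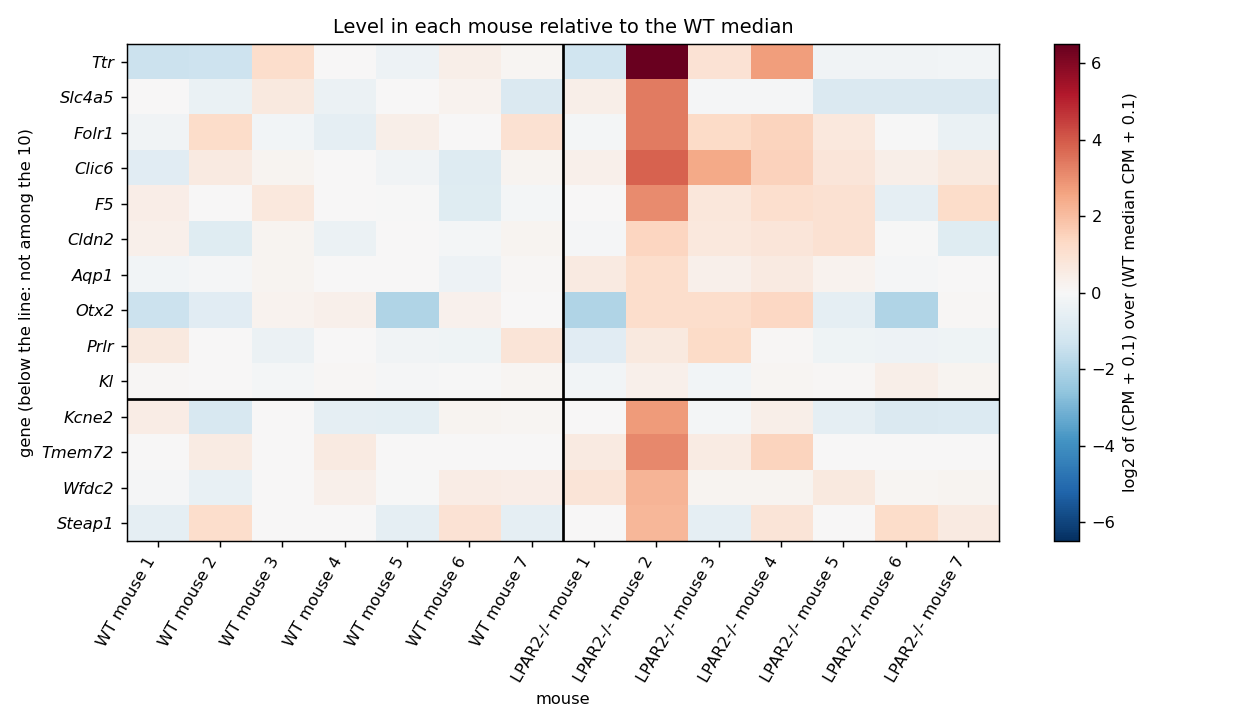
Level of each gene (rows) in each mouse (columns) as log2 of CPM plus 0.1 over the WT median plus 0.1, with 4 other genes of the epithelium below the horizontal line and LPAR2-/- mice right of the vertical line. The column of LPAR2-/- mouse 2 is dark red for Ttr and a lighter red for Slc4a5, Folr1, Clic6 and F5, and Kl is near white throughout.

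Otx2, a homeobox transcription factor that the epithelium needs for its development and upkeep (chr14:48657677-48667644, minus strand), had 21, 18 and 15 reads in LPAR2-/- mice 4, 3 and 2. The other LPAR2-/- mice had 0 to 5 reads and the WT mice 0 to 8. These 3 mice lay above all others, while LPAR2-/- mice 1 and 6 and WT mouse 5 had 0 reads. Markers of the ependyma, the ciliated lining of the ventricles, were also highest in mice 3 and 4. Of 15 ependymal genes, 10 peaked in LPAR2-/- mouse 3 and 3 in mouse 4, and their summed level was 70.3 and 63.2 CPM there against 33.6 to 48.9 CPM in WT mice. In LPAR2-/- mouse 2 this sum was 35.4 CPM, the 12th highest of 14. No ependymal gene of the list was at 0 in all mice. The part of ependymal RNA in the Otx2 counts was not tested.

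Cldn2 encodes the tight junction protein claudin-2, which forms a pore for cations between the epithelial cells (chrX:139800808-139811388, plus strand). Its counts were 58 in LPAR2-/- mouse 2, 41 to 44 in LPAR2-/- mice 3, 4 and 5, and 9 to 20 in LPAR2-/- mice 1, 6 and 7. WT mice had 13 to 29 reads with a median of 21, so 4 LPAR2-/- mice lay above all WT mice and 1 lay below them.

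Aqp1, the water channel of the apical membrane (chr6:55336299-55348555, plus strand), had 40 reads in LPAR2-/- mouse 2, a median of 26 and a lowest count of 14 in LPAR2-/- mice. WT mice had 11 to 20 reads with a median of 18. Prlr, the prolactin receptor (chr15:10177238-10349180, plus strand), was highest in LPAR2-/- mouse 3 with 90 reads. It had 18 to 50 reads in the other LPAR2-/- mice and 21 to 53 in the WT mice, and the median was lower in LPAR2-/- (25) than in WT mice (32).

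Kl encodes klotho, a coreceptor of FGFR1 for the hormone FGF23 (chr5:150952607-150993817, plus strand). It was the most evenly expressed member, with 450 to 682 reads in LPAR2-/- and 420 to 586 in WT mice. Its coefficient of variation over WT mice was 6.57%, against 13.1% for Aqp1 and 74.5% for Slc4a5. In LPAR2-/- mouse 2 Kl was 1.28 times the WT median.

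Per length, in RPKM, which divides the depth-scaled count by exon length, Kl was the most abundant member in WT mice at 5.21 ± 0.343 (SD, n = 7), followed by Ttr at 2.26 ± 1.44. Cldn2 at 0.339 ± 0.0881 and Aqp1 at 0.310 ± 0.0407 did not differ beyond their SD. The same held for each pair of neighbours from Folr1 (0.135 ± 0.0983) over Prlr, Otx2 and Clic6 to F5 (0.0579 ± 0.0224), and Slc4a5 was lowest at 0.0171 ± 0.0128. In LPAR2-/- mouse 2 the order was another. Ttr led there at 198 RPKM, followed by Kl at 6.61, Folr1 at 1.57 and Clic6 at 1.51 RPKM.

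To ask whether the genotypes differed, counts were tested with edgeR's quasi-likelihood F test over the 14897 genes that passed the filter on low counts, which left in 6 members. None of these 6 passed a Benjamini-Hochberg adjusted p of 0.05 with edgeR, where 6.77% of all tested genes did. At an unadjusted p under 0.05 it was 4 of the 6, Ttr, Aqp1, F5 and Cldn2, against 22.4% of all tested genes, and without LPAR2-/- mouse 2 it was 2 of the 6, Aqp1 and F5, against 21.3% of all genes tested without that mouse. The mean CPM was higher in LPAR2-/- mice for 10 of the 10 genes, and for 8 without mouse 2, against 51.3% and 51.4% of the 14901 genes with at least 20 reads in some mouse. Ranges of the genotypes overlapped for all 10, and were separate for 1.76% of those 14901 genes.

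The log2 fold change of Ttr was 3.85 ± 1.30 (SE, edgeR adjusted p = 0.09998), and 0.98 ± 0.644 (adjusted p = 0.422) without LPAR2-/- mouse 2. F5 had a log2 fold change of 1.44 ± 0.536 (edgeR adjusted p = 0.123), and 0.70 (adjusted p = 0.228) without that mouse. For Aqp1 the difference was 0.55 ± 0.195 (edgeR adjusted p = 0.104) and for Cldn2 0.68 ± 0.291 (adjusted p = 0.174). Without LPAR2-/- mouse 2 they were 0.39 for Aqp1 (edgeR adjusted p = 0.194) and 0.48 for Cldn2 (adjusted p = 0.331). These 4 genes did not pass the threshold, and all 4 sizes were smaller without that mouse, with the largest drops for Ttr and F5. Kl differed by 0.12 (edgeR adjusted p = 0.444; 95% interval -0.05 to 0.29) and Prlr by 0.07 (adjusted p = 0.924; 95% interval -0.53 to 0.67).

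**Figure D3:**
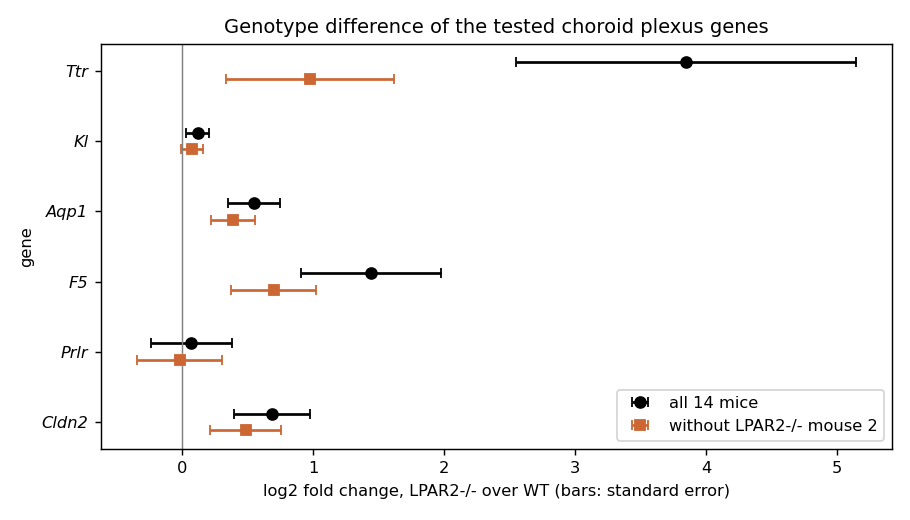
Log2 fold change of LPAR2-/- over WT (horizontal axis) of the 6 tested genes, with standard errors as bars, for all 14 mice (black circles) and without LPAR2-/- mouse 2 (orange squares). Ttr moves from 3.85 to 0.98 and F5 from 1.44 to 0.70, while Kl stays near 0.

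Clic6, Folr1, Slc4a5 and Otx2 fell below the filter. For each of the 10 genes the mean CPM was compared by an exact two-sided permutation test over every arrangement of the mice, whose smallest p is 0.000583, without adjustment for the 10 tests. Clic6 averaged 1.52 ± 1.91 CPM (SD, n = 7) in LPAR2-/- and 0.288 ± 0.132 CPM in WT mice (exact p = 0.00291), and 0.839 ± 0.650 CPM in LPAR2-/- mice without mouse 2 (exact p = 0.00291). DESeq2 gave Clic6 a log2 fold change of 2.40 (adjusted p = 0.00219), the only member it called, and called 8.63% of all genes to which it gave an adjusted p. With edgeR and no filter the value was 2.38 (adjusted p = 0.0670), so the call for Clic6 depended on the test. Of the others, Aqp1 had an exact p of 0.0140 and F5 of 0.0332, both unadjusted, which became 0.0239 and 0.0629 without LPAR2-/- mouse 2, and the remaining 7 had exact p from 0.0845 to 0.914. DESeq2 replaced the Ttr count of LPAR2-/- mouse 2, 4726, by 59 and its Slc4a5 count, 38, by 1 as outliers, and so gave Ttr a log2 fold change of 0.84 (adjusted p = 0.462).

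A list of 38 further genes known from the choroid plexus was read beside the 10. Of its 27 tested genes, edgeR called 4 higher and 1 lower in LPAR2-/- mice, and 13 had an unadjusted p under 0.05, where the shares of all tested genes were 6.77% and 22.4%. The median log2 fold change was 0.40, against 0.62 for the 6 tested members and 0.00 for all tested genes. Without LPAR2-/- mouse 2 the median was 0.25 for the further list and 0.44 for the members. Ace, the angiotensin-converting enzyme, rose from 8.67 ± 2.44 CPM (SD, n = 7) in WT to 17.5 ± 7.46 CPM in LPAR2-/- mice (edgeR adjusted p = 0.0347). Abca4, a lipid transporter, rose by 0.70 on the log2 scale (edgeR adjusted p = 0.0326). Col9a3, a collagen chain, rose by 0.45 (adjusted p = 0.0138), and Spint2, a protease inhibitor, by 0.26 (adjusted p = 0.0447, edgeR). Car12, a carbonic anhydrase, fell by 0.26 (edgeR adjusted p = 0.0463). When each mouse was left out in turn, Col9a3 kept an edgeR adjusted p of at most 0.0327, and the largest values of the other 4 were 0.0708 to 0.1002. None of these 5 was highest in LPAR2-/- mouse 2, where Ace ranked 5th and Col9a3 4th. Ace and Abca4 were highest in LPAR2-/- mice 5, 4 and 6, in that order, among all mice of both genotypes. The summed meningeal markers were highest in LPAR2-/- mice 5 and 4, at 1728 and 1517 CPM. WT mouse 4 came next at 1138 CPM, above the 988 CPM of LPAR2-/- mouse 6.

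In LPAR2-/- mouse 2 other genes of that list followed the members. Tmem72, a membrane protein of this epithelium, had 15 reads there and 0 to 4 in the other mice. Wfdc2, a secreted protease inhibitor, had 16 reads and was 3.20 times the next highest CPM, and Steap1, a metalloreductase family member, had 11 reads and was 2.36 times the next highest. Enpp2, the autotaxin enzyme that makes lysophosphatidic acid, had 3480 reads there against 3069 in LPAR2-/- mouse 3. LPAR2-/- mouse 2 was the highest for 9 of the 37 detected genes of the list, and LPAR2-/- mouse 5 also for 9. Slc13a4, a sulfate transporter made in choroid plexus and meninges alike, had 823 reads in LPAR2-/- mouse 5 and 203 in mouse 2. Mfrp had 0 reads in every mouse.

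Meningeal markers (15 genes, collagens among them) were highest in LPAR2-/- mouse 5 for 13 of the 15, and their sum in LPAR2-/- mouse 2 was 349.7 CPM, within the 155 to 1138 CPM of WT mice. Their median log2 fold change was 1.10, and 12 of 15 had an unadjusted p under 0.05, against 22.4% of all tested genes. At the adjusted threshold edgeR called 1 of 15, against 6.77% of all tested genes, and 6 of 15 without WT mouse 4. The gene called with all mice was Lum, a proteoglycan (log2 0.54, edgeR adjusted p = 0.0132, and at most 0.0328 with any mouse left out). All 15 were detected. Ependymal genes had a median log2 fold change of 0.24, and edgeR called 0 of 11 tested, with 1 at an unadjusted p under 0.05 and 1 called by DESeq2. The part of meningeal RNA in Cldn2, Aqp1, Ace, Abca4 and the other further choroid plexus genes was not tested. Of 10 hippocampal neuron genes edgeR and DESeq2 called 0, with 0 at an unadjusted p under 0.05 and a median log2 fold change of -0.03. Of 10 thalamic genes edgeR called 0, with 1 at an unadjusted p under 0.05, and DESeq2 called 1, with a median of 0.05. Of 6 blood genes, the 4 globin genes were at 0 in every mouse. They are near-identical copies, and reads that match several genes or places were not counted, so these counts of 0 do not show that blood RNA was absent. Of 10 endothelial genes edgeR called 1, Slco1c1, described with the thyroid genes.

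**Figure D4:**
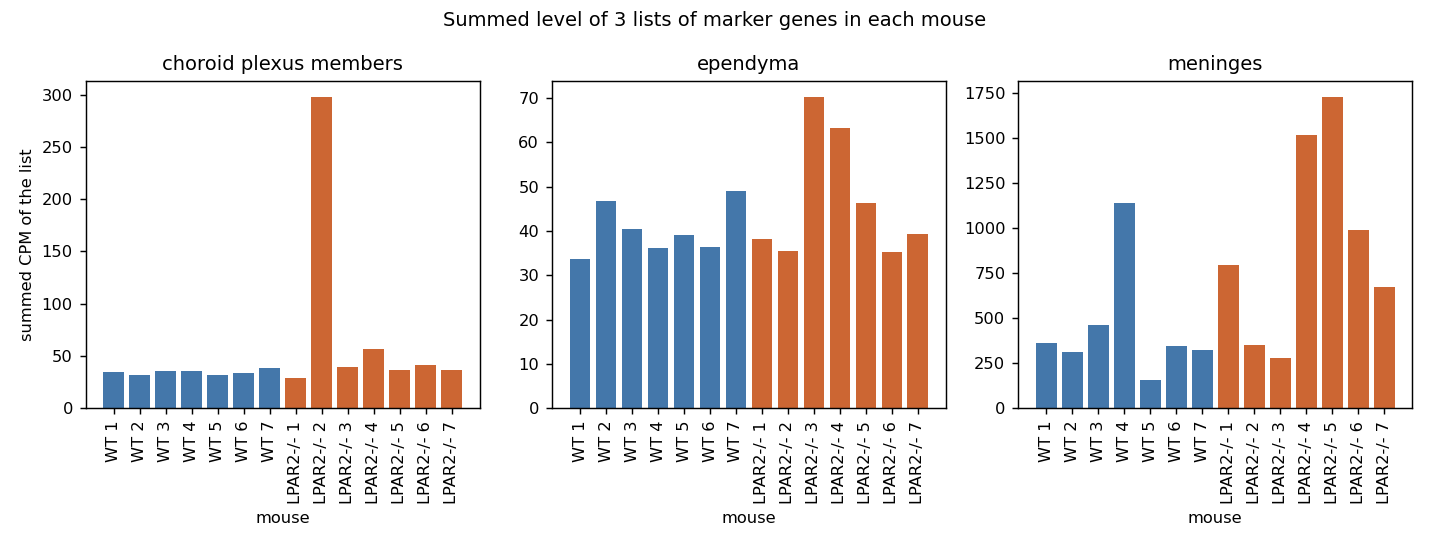
Summed CPM (vertical axes, from 0) of the 10 choroid plexus genes, 15 ependymal genes and 15 meningeal genes in each WT (blue) and LPAR2-/- (orange) mouse. The sum of the 10 genes peaks in LPAR2-/- mouse 2 at 298 CPM, the ependymal sum in mouse 3 at 70.3 CPM and the meningeal sum in mouse 5 at 1728 CPM.

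Since Ttr carries thyroxine and retinol, 13 genes of thyroid hormone and retinol handling were looked at beside it. All 13 were tested and edgeR called 4, against 6.77% of all tested genes. At an unadjusted p under 0.05 it was 7, against 22.4% of all tested genes. The 3 called genes named here were lower in LPAR2-/- mice. Dio2, which activates thyroxine, fell from 80.5 ± 17.1 CPM (SD, n = 7) in WT to 57.1 ± 3.80 CPM (edgeR adjusted p = 0.0282). Slco1c1, a thyroxine transporter of brain vessels, fell by 0.28 on the log2 scale (edgeR adjusted p = 0.0230) and Thrb, a thyroid hormone receptor, fell by 0.26 (adjusted p = 0.0357, edgeR). Without LPAR2-/- mouse 2, Slco1c1 alone of these passed (edgeR adjusted p = 0.0417), and each of the 3 lost its call in some fit with a mouse left out, at adjusted p up to 0.0537 (Slco1c1) to 0.0841 (Thrb). Among 12 partners of the folate, prolactin and klotho receptors, 10 were tested and 1 was called, against the 6.77% of all tested genes. This was Fgfr1, the receptor that klotho joins, which fell from 162 ± 9.22 to 137 ± 9.70 CPM (SD, n = 7; edgeR adjusted p = 0.00847), with an adjusted p of at most 0.0212 when any mouse was left out.

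Likeness to Ttr was measured as Spearman's rho of log2 CPM (prior count 2) over the 14 mice, which share the reference of each library's total. Among the members Otx2 came closest with rho 0.84, followed by Aqp1 (0.50), Clic6 and Folr1 (both 0.41), Cldn2 (0.40), F5 (0.33), Slc4a5 (0.28), Prlr (0.27) and Kl (0.22). Pearson's r, which weighs the size of the difference in LPAR2-/- mouse 2, gave another order, with Clic6 (0.80), Slc4a5, Folr1 and F5 (each 0.78), Aqp1 (0.76) and then Cldn2 and Otx2 (both 0.68). Without LPAR2-/- mouse 2, Otx2 had the highest r (0.76) and that of Slc4a5 was 0.16. The 10 other genes with the highest rho were Gm5069 (0.84), Akt1s1 (0.83), Crlf2 (0.81), Ppp1r1b (0.81), Grcc10 (0.81), Mmp21 (0.79), Kif19a (0.79), Cox8a (0.78), Mocos (0.78) and C330006A16Rik (0.78). None of these 10 belongs to the choroid plexus lists, and only Gm5069 was highest in LPAR2-/- mouse 2.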

How the data were processed

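RNA of 14 hippocampi (7 per genotype, 1 library per mouse) was sequenced by the authors. The labels name a TruSeq RNA kit, and the paper's methods a total RNA version of it with ribosomal RNA removed, so the library type is uncertain. Per the paper's methods and the submitters' processing notes, adapters were removed by cutadapt 1.18, STAR placed the reads on mm10, and exonic reads of the reverse strand were summed per gene. The deposited counts are raw reads per gene from featureCounts 1.6.3. A second table of normalized values made from these counts was not used here.

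Genes were taken by name. R 4.3.3 was used with edgeR 4.0.16 (filterByExpr, TMM, robust quasi-likelihood F test, no covariates, Benjamini-Hochberg over 14897 genes), limma 3.58.1 and DESeq2 1.42.0 as an alternative. The standard error is the log2 fold change divided by the square root of F. CPM used the reads on genes past the filter. Single genes were compared by exact permutation. Low members rest on few reads at this depth, and floors cover counting error only. Intervals of the log2 fold change were built from the standard error of the F test, which also includes variation between mice. Scripts were tested on simulated data. Alternatives were other scaling, other filters, DESeq2, a block for mouse number and leaving out each mouse.

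The members and the 9 other lists were chosen with earlier results of these data known. Named genes were all members, up to 4 called genes per list by smallest p (Car12, the 5th of its list, and genes high in LPAR2-/- mouse 2 were added after their values were seen), the 10 genes most like Ttr, and Lpar2. A called gene of the thyroid hormone and retinol list is not reported here. The labels say that each sample is another mouse, and name no batch.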

Additional observations from a re-analysis of the deposited data

Results flagged for a closer look

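In LPAR2-/- mice, 5 of the 10 genes had a highest value set apart from the other 6 by a gap beyond Dixon's 95% critical value for 7 samples, in each case in LPAR2-/- mouse 2. The gap as a share of the range in CPM was 0.928 for Ttr, 0.921 for Slc4a5, 0.797 for F5, 0.788 for Folr1 and 0.681 for Clic6. For normally distributed values, chance would give such a gap in about 1 of 20 groups, and 20 groups of 7 were examined. Whether that rate holds for these CPM, many from low counts, was not tested. The genes were read in the same library, so these 5 values are not independent of each other.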

How the results depend on the processing

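The 6 tested members stayed above the adjusted threshold of 0.05 under each of the edgeR alternatives, and 1 member, Clic6, was called with DESeq2. Sizes depended on single mice. The log2 fold change of Ttr ran from 0.98 to 4.19 when each mouse was left out in turn, and that of F5 from 0.70 to 1.61, in both cases lowest without LPAR2-/- mouse 2. Prlr changed sign without LPAR2-/- mouse 2 (-0.02), without LPAR2-/- mouse 3 (-0.24) and without WT mouse 3 (-0.0054), and was at most 0.22 (without WT mouse 7). The upper quartile in place of TMM moved the share of called genes that were higher in LPAR2-/- from 49.0% to 62.0%.

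Leaving out each mouse gave 567 to 1385 called genes in all (1009 with all mice), lowest without WT mouse 2. The further choroid plexus list had 1 to 8, with 1 without LPAR2-/- mouse 1 or 5 or WT mouse 2 or 6, 2 without LPAR2-/- mouse 4 or 6 or WT mouse 3, 5 or 7, and 8 without WT mouse 4. Ependyma had 0 to 1 (1 without LPAR2-/- mouse 1, 2 or 6), meninges 1 to 6 (2 without LPAR2-/- mouse 3, 6 without WT mouse 4), endothelium 0 to 2 (0 without LPAR2-/- mouse 1 or WT mouse 5, 2 without WT mouse 1) and thalamus 0 to 1 (1 without LPAR2-/- mouse 2 or WT mouse 4). Thyroid hormone and retinol handling had 0 to 5, with 0 without WT mouse 2 and 1 without LPAR2-/- mouse 1 or 2 or WT mouse 5. DESeq2 called 1400 genes in all, 8 of the further list (5 with edgeR), 1 of ependyma, 2 of endothelium and 1 of thalamus. A minimum of 10 counts in every library left F5 and Cldn2 without a value. Without a filter the further list had 3, and with the upper quartile ependyma had 1. The causes were not tested.

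Mouse numbers did not pair the genotypes (correlation of deviations -0.334 to 0.311, over 0.1 in 3 of 7 pairs, and 5 of 14 mice closest to their own number). With the number as a replicate block, 586 genes were called, among them 1 of the further list, 0 of meninges, 0 of endothelium and 1 of thyroid hormone and retinol handling, and the log2 fold change of Ttr was 1.57. Of the 10 genes most like Ttr, 1 was shared when Pearson's r was used and 2 after removal of the genotype means. Counts below about 20 reads, as for Slc4a5 and Otx2 in most mice, limit what a difference can show.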
